A study of Mus musculus with 6 samples.

Results

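The inhibitory receptors of T cells were followed as a set of 10 genes among the 33300 features of an RNA-seq table. The set holds the co-inhibitory receptor genes Pdcd1, Ctla4, Lag3, Havcr2, Tigit, Btla, Cd160 and Vsir, the surface glycoprotein gene Cd200, and Entpd1, which encodes the ectonucleotidase CD39. Members were chosen by name, and each symbol matched 1 row. All 10 had a mean of at least 1 FPKM (reads per kilobase of feature and per 1000000 assigned reads) over the 6 libraries and were tested with 11368 other genes. Havcr2 and Cd160 reached that mean only through the libraries of the lupus-prone mice, and Entpd1 had a control mean of 0.884 FPKM, so for these 3 a higher level was largely built into the filter.

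Libraries came from 3 control mice, labelled wild type, and 3 SLE1.2.3 mice, all female and matched in age; neither the ages nor the strain of the controls is given in the labels. Mice of the SLE1.2.3 line develop lupus because of genome segments, Sle1, Sle2 and Sle3, brought in from a lupus-prone strain. Each segment holds many genes, so the line stands for their combination and not for a single mutation. Naive CD4 T cells of every mouse were cultured for 5 days on plates coated with antibodies to CD3 and CD28, with 10 µg/mL each of antibodies that neutralize IL-4 and interferon-γ. IL-6 at 50 ng/mL was combined with TGF-β1 at 1 ng/mL, and IL-1β and IL-23 were both used at 10 ng/mL, which drives the Th17 state. Each library is named by its group and mouse number.

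Co-inhibitory receptors are surface proteins that lower T cell receptor signalling when they meet their ligands. Most are absent or low on naive T cells and appear after activation, and several of them held together at high levels for long periods mark exhausted T cells. CTLA-4 competes with the activating receptor CD28 for the ligands CD80 and CD86. PD-1, the product of Pdcd1, recruits phosphatases that act close to the T cell receptor and CD28, and BTLA works through a similar tail. BTLA and VISTA, the product of Vsir, are already present on resting T cells.

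Between 29734000 and 83458000 assigned reads stood behind each library, as worked out from the smallest FPKM steps. T cell identity was checked on Cd3d, Cd3e and Cd3g, whose summed level lay between 346 and 398 FPKM in control libraries and between 374 and 403 FPKM in SLE1.2.3 libraries. The 6 Th17 markers, led by the cytokine gene Il17a, summed to 852 to 1567 FPKM in the controls and 2593 to 3012 FPKM in SLE1.2.3 libraries. Of the 6, 5 rose at an adjusted p under 0.05 in limma, as did 9.65% of all genes tested. Cd4 was at 246, 264 and 253 FPKM in the controls and at 257, 144 and 71.6 FPKM in SLE1.2.3 mice 1, 2 and 3. The 8 listed γδ T cell markers summed to 2.95 to 3.78 FPKM in the controls and to 57.3, 259 and 571 FPKM in SLE1.2.3 mice 1, 2 and 3. All 8 were above every control, as were 23.9% of all genes tested. Each of the 8 had a control mean under 1 FPKM and was tested because of its SLE1.2.3 values, so a higher level was largely built into the filter. The 7 listed CD8 T and NK cell markers summed to 11.1 to 12.5 FPKM in the controls and to 31.2, 91.1 and 155 FPKM in those of SLE1.2.3 mice. Above every control were 5 of the 7, beside the same 23.9% of all genes tested. Of these the NK receptor genes Klrd1 and Klrk1 rose in the mean, from 6.21 to 27.5 FPKM and from 0.149 to 7.98 FPKM (limma adjusted p = 0.0050 and 0.018). Klrk1 reached the filter only through SLE1.2.3 libraries, so a higher level was largely built in. Ncr1 was at no more than 0.032 FPKM in any library. In such bulk RNA, fewer cells of a type and less RNA per cell cannot be told apart. In Cd4 and in the γδ and CD8 and NK sums, SLE1.2.3 mouse 1 was nearest the controls and mouse 3 farthest, with mouse 2 between them. Results are also given with and without mouse 1.

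The question was how each receptor gene differed between the Th17-polarized cells of lupus-prone and control mice. Tigit, Pdcd1, Havcr2 and Entpd1 rose in SLE1.2.3 cells, and the other 6 members did not pass an adjusted p of 0.05 in limma (linear model on log2(FPKM + 1), Benjamini-Hochberg over all 11378 genes). Across all genes tested, 15.2% passed, 9.65% as higher and 5.58% as lower. Rescaling to a common FPKM sum changed the split over all genes from 1098 higher and 635 lower to 1006 and 349, and quantile normalization to 921 and 881. No member passed as lower in limma, while 3 were lower at an unadjusted p under 0.05, and 0 members passed as lower with limma voom on the recovered reads. Such an unadjusted p was common in limma, with 3977 of the 11378 genes under 0.05 in either direction. In 5 members every SLE1.2.3 value was above every control value and in 3 every value was below. Over all genes tested such a separation was found in 41.5%, with 23.9% higher and 17.7% lower. The 5 include Havcr2, Cd160 and Entpd1, whose higher level was largely built into the filter. The median change of the 10 members was 0.48 on the log2 scale, against 0.013 for all genes tested. Havcr2, Cd160 and Entpd1 raise that median with log2 changes of 2.77, 1.62 and 0.77, so no shift of the set is read from it. Of the other members, Pdcd1, Tigit and Lag3 changed upward and Ctla4, Btla, Cd200 and Vsir downward.

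**Figure D1:**
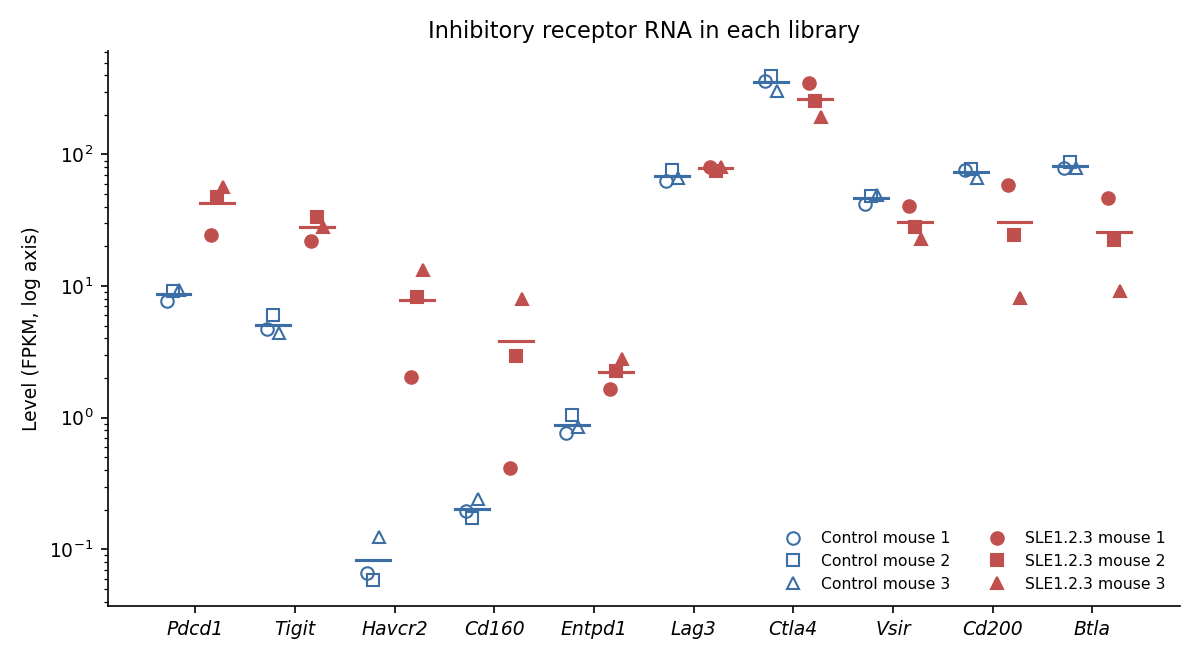
Level of each inhibitory receptor gene in FPKM on a log axis, with open blue symbols for the 3 control libraries, filled red symbols for the 3 SLE1.2.3 libraries and a bar for each group's mean. Tigit runs from 4.43 to 6.07 FPKM in the controls and from 22.1 to 33.3 FPKM in SLE1.2.3 cells, while Btla and Cd200 fan out downward to 9.18 and 8.16 FPKM in SLE1.2.3 mouse 3.

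The promoters of the 3 members with the largest called rises and of Btla, the member with the most negative change, are shown so that genes with opposite differences can be read side by side. The windows run from 250 bases before to 50 bases after the start site and come from RefSeq (GRCm38.p6, the assembly behind mm10), where 9 of the 10 members had an entry; Lag3 had none. The 6 motifs listed in the next paragraph were searched on both strands, and capitals mark their matches, of which none overlapped another.
Havcr2, chr11:46454681-46454980, plus strand: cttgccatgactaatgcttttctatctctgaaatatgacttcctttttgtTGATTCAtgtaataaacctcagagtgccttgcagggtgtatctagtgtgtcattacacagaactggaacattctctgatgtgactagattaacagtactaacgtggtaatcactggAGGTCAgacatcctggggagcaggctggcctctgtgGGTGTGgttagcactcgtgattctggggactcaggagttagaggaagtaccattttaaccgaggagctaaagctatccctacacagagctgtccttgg
Pdcd1, chr1:94052504-94052803, minus strand: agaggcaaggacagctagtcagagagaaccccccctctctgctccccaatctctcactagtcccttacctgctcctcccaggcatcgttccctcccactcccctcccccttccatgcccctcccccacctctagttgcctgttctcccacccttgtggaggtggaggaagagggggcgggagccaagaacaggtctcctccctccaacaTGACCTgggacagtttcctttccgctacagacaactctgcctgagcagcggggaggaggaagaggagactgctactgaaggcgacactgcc
Tigit, chr16:43664135-43664434, minus strand: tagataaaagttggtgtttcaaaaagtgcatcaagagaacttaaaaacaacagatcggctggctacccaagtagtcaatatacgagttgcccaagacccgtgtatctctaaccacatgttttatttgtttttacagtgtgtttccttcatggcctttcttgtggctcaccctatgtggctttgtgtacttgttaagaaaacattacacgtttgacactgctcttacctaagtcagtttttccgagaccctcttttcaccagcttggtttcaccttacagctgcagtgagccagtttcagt
Btla, chr16:45224087-45224386, plus strand: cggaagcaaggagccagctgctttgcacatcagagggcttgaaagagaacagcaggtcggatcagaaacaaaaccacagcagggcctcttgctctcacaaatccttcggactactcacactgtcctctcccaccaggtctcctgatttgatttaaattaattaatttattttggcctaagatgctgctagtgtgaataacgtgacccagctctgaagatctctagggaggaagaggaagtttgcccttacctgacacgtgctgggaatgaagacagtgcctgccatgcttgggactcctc

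The motifs were TGANTCA for AP-1, TGGAAA for NFAT, TTCNNNGAA for STAT factors, a pair of GAAA runs spaced by 2 bases of any kind for interferon regulatory factors, GGTGTG for T-box factors and AGGTCA for ROR factors. The Havcr2 window held 3 matches, to the AP-1 motif at positions -200 to -194 from the start site, the ROR motif at -84 to -79 and the T-box motif at -48 to -43. The Pdcd1 window held a ROR match at -41 to -36, and the Tigit and Btla windows held none of the motifs. Over all 32851 promoter windows, 7.81% held the AP-1 motif, 16.3% the ROR motif, 19.0% the T-box motif, 21.4% the NFAT motif, 8.30% the STAT motif and 3.44% the interferon regulatory factor motif. Among the 11 windows of the members, the T-box motif was in 3, that of Havcr2 and the 2 of Cd160, and the ROR motif in 2. The AP-1, NFAT and STAT motifs were in 1 window each and the interferon regulatory factor motif in 0. So few windows do not allow a comparison with the shares over all windows. A match describes the letters of the window and is not a site of binding.

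Tigit (ENSMUSG00000071552.5, mm10 chromosome 16, 43648867 to 43664146, minus strand) encodes TIGIT, a receptor that binds CD155 and competes with the activating receptor CD226. Its level was 4.76, 6.07 and 4.43 FPKM in control mice 1, 2 and 3 and 22.1, 33.3 and 28.2 FPKM in SLE1.2.3 mice 1, 2 and 3. The groups did not overlap, and the 3 SLE1.2.3 libraries lay close together. The mean rose from 5.09 ± 0.871 to 27.9 ± 5.61 FPKM (SD, n = 3 each), 5.49-fold, with a log2 change of 2.24 ± 0.17 (SE; limma adjusted p = 0.0025). Among the 10 members it was the only one that passed under each of the 17 alternative settings. Cd226, its activating counterpart, was at 3.88, 3.55 and 3.20 FPKM in the controls and at 3.13, 4.78 and 8.60 FPKM in SLE1.2.3 cells (limma adjusted p = 0.33).

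Pdcd1 (ENSMUSG00000026285.7, mm10 chromosome 1, 94038305 to 94052553, minus strand) encodes PD-1. It was at 7.71, 9.25 and 9.39 FPKM in the control libraries and at 24.5, 47.2 and 56.9 FPKM in SLE1.2.3 mice 1, 2 and 3. All SLE1.2.3 values were above all controls, and mouse 1 was the lowest of them. The mean rose 4.88-fold, from 8.78 ± 0.934 to 42.9 ± 16.6 FPKM, with a log2 change of 2.09 ± 0.30 (SE; limma adjusted p = 0.012). The call ended when any 1 control mouse or SLE1.2.3 mouse 2 was left out, with adjusted p between 0.055 and 0.062 in limma and log2 changes of 1.98 to 2.13. Pdcd1 lies on chromosome 1, whose distal part carries the Sle1 interval. The bounds of the interval were not compared with the position of the gene, and a link between them was not tested.

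Havcr2 (ENSMUSG00000020399.14, mm10 chromosome 11, 46454935 to 46481255, plus strand) encodes TIM-3, a receptor of terminally differentiated Th1 and cytotoxic T cells. It was close to absent in control cells, at 0.066, 0.058 and 0.124 FPKM, which corresponded to 9, 9 and 10 reads. In SLE1.2.3 mice 1, 2 and 3 it was at 2.04, 8.28 and 13.3 FPKM, or 464, 1389 and 2716 reads. The lowest SLE1.2.3 value was thus 24.7 times the control mean. The log2 change was 2.77 ± 0.53 (SE; limma adjusted p = 0.024), a scale on which the added 1 FPKM compresses the difference of so low a gene. The same gene gave a log2 change of 6.21 with limma voom on the recovered reads, where it did not pass (adjusted p = 0.082), and with no filter on the level it gave an adjusted p of 0.070. The call also ended when any 1 control mouse or SLE1.2.3 mouse 2 was left out (adjusted p between 0.087 and 0.10).

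Cd160 (ENSMUSG00000038304.14, mm10 chromosome 3, 96798763 to 96829351, minus strand) encodes a receptor of NK cells, CD8 T cells and some innate lymphocytes that binds HVEM and class I molecules. It was at 0.195, 0.173 and 0.242 FPKM in the controls and at 0.413, 2.96 and 8.02 FPKM in SLE1.2.3 mice 1, 2 and 3. Every SLE1.2.3 value was above the controls, but they spread over a 19-fold range and the gene did not pass (log2 change 1.62, 95% interval 0.12 to 3.12; limma adjusted p = 0.12). The CD8 chain gene Cd8a, at 0.508, 0.218 and 0.388 FPKM in the controls and 1.34, 21.4 and 56.4 FPKM in SLE1.2.3 cells, was likewise lowest in mouse 1 and highest in mouse 3 among the SLE1.2.3 libraries. The γδ chain gene Trdc was at 0.627, 0.661 and 0.592 FPKM in the controls and 4.96, 18.9 and 45.2 FPKM in SLE1.2.3 cells. Pdcd1, Havcr2, Cd160 and Entpd1 were likewise lowest in mouse 1 and highest in mouse 3 among SLE1.2.3 libraries, and the part of these other lymphocyte markers in the changes was not tested.

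**Figure D2:**
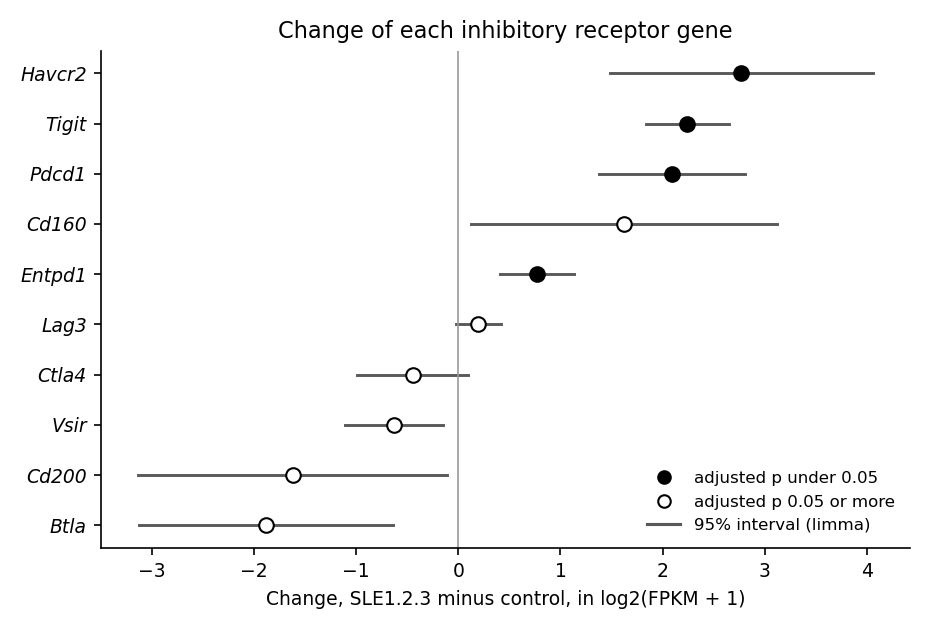
Change of each inhibitory receptor gene in log2(FPKM + 1), SLE1.2.3 minus control, with limma's 95% interval; filled points have an adjusted p under 0.05 over all genes tested. The 4 filled points lie between 0.77 for Entpd1 and 2.77 for Havcr2, and the intervals of Lag3 and Ctla4 include 0.

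Entpd1 (ENSMUSG00000048120.16, mm10 chromosome 19, 40612366 to 40741602, plus strand) encodes CD39, which breaks down extracellular ATP and is the first enzyme on the path to immunosuppressive adenosine. Its level was low throughout, at 0.765, 1.04 and 0.844 FPKM in the controls and 1.66, 2.25 and 2.80 FPKM in SLE1.2.3 cells. The groups did not overlap. The mean was 2.53-fold higher, with a log2 change of 0.77 ± 0.15 (SE; limma adjusted p = 0.025). That call ended with no filter (adjusted p = 0.072) and when any 1 control mouse or SLE1.2.3 mouse 2 was left out (adjusted p between 0.078 and 0.11). The next enzyme of the path, CD73, is encoded by Nt5e, which was at 7.38, 6.52 and 6.88 FPKM in the controls and 8.09, 8.68 and 9.37 FPKM in SLE1.2.3 cells, and did not pass (limma adjusted p = 0.052). Of 10 listed genes of ATP and adenosine handling, Entpd1 included, 3 rose and 2 fell, where 15.2% of all genes passed. This list too was chosen with earlier results of these data known. The adenosine receptor gene Adora2a rose from 7.04 ± 0.466 to 11.7 ± 0.677 FPKM (SD, n = 3 each; limma adjusted p = 0.0072) and Adora2b from 1.79 ± 0.407 to 3.83 ± 1.08 FPKM (adjusted p = 0.048). The nucleoside transporter gene Slc29a1 and the listed gene Dpp4 fell by 0.30 and 0.56 on the log2 scale (limma adjusted p = 0.024 and 0.036).

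Ctla4 (ENSMUSG00000026011.13, mm10 chromosome 1, 60887000 to 60915832, plus strand) was the most abundant member in all 6 libraries. It was at 362, 395 and 304 FPKM in the controls and at 349, 254 and 193 FPKM in SLE1.2.3 mice 1, 2 and 3. The value of SLE1.2.3 mouse 1 lay within the control range and those of mice 2 and 3 below it. The difference did not pass (log2 change -0.45, 95% interval -0.99 to 0.10; limma adjusted p = 0.21). Cd28, whose gene lies 114 kb from Ctla4, was at 101, 110 and 112 FPKM in the controls and 110, 67.3 and 40.7 FPKM in SLE1.2.3 cells (limma adjusted p = 0.20). Icos, the third receptor gene of that cluster, was at 129, 109 and 103 FPKM and at 118, 106 and 118 FPKM (adjusted p = 0.98).

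Lag3 (ENSMUSG00000030124.2, mm10 chromosome 6, 124904361 to 124911705, minus strand) encodes a CD4-related receptor for MHC class II. It was at 62.6, 76.7 and 66.4 FPKM in the controls and at 79.8, 74.4 and 80.9 FPKM in SLE1.2.3 cells. The ranges overlapped, and the 95% interval of the log2 change ran from -0.03 to 0.42 (limma adjusted p = 0.19). Lag3 passed in none of the 17 alternative settings. Its interval excludes a rise as large as the lower bound of Pdcd1, which was 1.37, or of Tigit, which was 1.83.

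Btla (ENSMUSG00000052013.15, mm10 chromosome 16, 45224315 to 45257670, plus strand) encodes BTLA, an immunoglobulin family receptor that binds HVEM. It was at 78.9, 87.5 and 78.3 FPKM in the controls and at 46.5, 22.2 and 9.18 FPKM in SLE1.2.3 mice 1, 2 and 3. All 3 values lay below the controls, by 1.76-fold, 3.67-fold and 8.89-fold against the control mean. The spread was wide, and the change did not pass (log2 change -1.88 ± 0.51 SE; limma adjusted p = 0.057). It passed with every library set to the same FPKM total (limma adjusted p = 0.011) and when SLE1.2.3 mouse 1 (adjusted p = 0.0028) or mouse 3 (adjusted p = 0.044) was left out. Tnfrsf14, which encodes its ligand HVEM, was at 9.57, 11.96 and 16.6 FPKM and at 13.3, 20.5 and 20.8 FPKM (limma adjusted p = 0.20).

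Cd200 (ENSMUSG00000022661.14, mm10 chromosome 16, 45382135 to 45409053, minus strand) encodes a glycoprotein that restrains myeloid cells through the receptor CD200R. It was at 75.6, 77.8 and 65.7 FPKM in the controls and at 58.9, 24.2 and 8.16 FPKM in SLE1.2.3 mice 1, 2 and 3. Mouse 1 was only slightly below the lowest control, and mouse 3 was 8.95-fold below the control mean. The change did not pass (log2 change -1.62, 95% interval -3.13 to -0.11; limma adjusted p = 0.12). Cd200r1, the receptor gene, rose from 1.30 ± 0.243 to 2.52 ± 0.477 FPKM (SD, n = 3 each; limma adjusted p = 0.035).

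Vsir (ENSMUSG00000020101.14, mm10 chromosome 10, 60346851 to 60372684, plus strand) encodes VISTA, a receptor that helps to keep naive T cells quiescent. It was at 41.9, 48.4 and 49.2 FPKM in the controls and at 40.3, 28.2 and 22.9 FPKM in SLE1.2.3 cells. The groups did not overlap, although mouse 1 was close to the lowest control. The change did not pass (log2 change -0.63, 95% interval -1.11 to -0.15; limma adjusted p = 0.078).

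BTLA, CD200 and VISTA are also made by B cells, dendritic cells or myeloid cells. The 7 B cell markers summed to 1.82 to 2.82 FPKM in the controls and 2.87 to 4.51 FPKM in SLE1.2.3 libraries, with Ms4a1 at no more than 0.043 FPKM in any library. Cd79b rose from a mean of 0.942 to 2.17 FPKM (limma adjusted p = 0.040). It reached the filter through its SLE1.2.3 values, so a higher level was largely built in. The 7 myeloid markers summed to 8.32 to 9.65 FPKM in the controls and to 12.1, 5.10 and 3.11 FPKM in SLE1.2.3 mice 1, 2 and 3, and 1 of the 7 was below every control. Lyz2 made up much of it, at 3.09, 3.56 and 5.70 FPKM in the controls and 7.73, 2.07 and 1.06 FPKM in SLE1.2.3 cells (limma adjusted p = 0.63). Cd68 fell from a mean of 3.48 to 1.65 FPKM (adjusted p = 0.026), and Itgam and Csf1r were at no more than 0.107 and 0.106 FPKM in any library. The 6 dendritic markers summed to at most 0.639 FPKM in the controls and 5.79 FPKM in SLE1.2.3 cells, nearly all of it Xcr1, with Siglech at no more than 0.01 FPKM. Of the 7 regulatory T cell markers, Foxp3 was at 0.269, 0.246 and 0.309 FPKM in the controls and 1.73, 0.864 and 1.03 FPKM in SLE1.2.3 cells, far below Ctla4 in each. Lrrc32 fell, from 29.5, 22.7 and 24.3 FPKM to 10.01, 2.43 and 0.724 FPKM (limma adjusted p = 0.037). Tnfrsf18 and Gpr83 were also below every control in all 3 SLE1.2.3 libraries, and Foxp3 and Ikzf2 above. The list's summed level was 408 to 510 FPKM in the controls and 336 to 429 FPKM in SLE1.2.3 cells, most of it Il2ra. Among SLE1.2.3 libraries Cd4, at 257, 144 and 71.6 FPKM in mice 1, 2 and 3, was highest in mouse 1 and lowest in mouse 3. Btla, Cd200, Vsir and Ctla4 had the same order, and Cd3e and Cd3g did not. The part of Cd4 and of the other markers in the differences of Btla, Cd200, Vsir and Ctla4 was not tested.

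The order of the levels, compared per length, differed between the groups. In control cells the mean FPKM ran from Ctla4 (354) through Btla (81.6), Cd200 (73.0), Lag3 (68.6), Vsir (46.5), Pdcd1 (8.78), Tigit (5.09), Entpd1 (0.884) and Cd160 (0.203) to Havcr2 (0.0827). Cd200 and Lag3 were the only neighbours in this order whose values overlapped. In SLE1.2.3 cells Ctla4 (265) and Lag3 (78.4) led by the mean, and Pdcd1 (42.9) came next with values that overlapped those of Vsir. The libraries differed in this: in mouse 1 Cd200 (58.9), Btla (46.5) and Vsir (40.3) were above Pdcd1 (24.5), and in mice 2 and 3 they were below it. Vsir (30.5), Cd200 (30.4), Tigit (27.9) and Btla (26.0) followed with overlapping values, and then Havcr2 (7.87), Cd160 (3.80) and Entpd1 (2.24), which also overlapped with their neighbours. By rank among all genes tested, Pdcd1 moved from the 53.8th to the 89.5th percentile, Tigit from the 38.3rd to the 82.6th and Havcr2 from the 0.65th to the 49.4th. Havcr2 is in that ranking only through its SLE1.2.3 values, so a climb from a low control rank was built into the filter.

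The summed level of the 10 genes was 634, 702 and 578 FPKM in the controls and 626, 497 and 423 FPKM in SLE1.2.3 mice 1, 2 and 3. Pdcd1, Tigit, Havcr2, Cd160 and Entpd1 together made up 2.13%, 2.36% and 2.60% of that sum in the controls, and 8.12%, 18.9% and 25.8% in SLE1.2.3 mice 1, 2 and 3. Btla and Cd200 together held 154, 165 and 144 FPKM in the controls and 105, 46.5 and 17.3 FPKM in SLE1.2.3 mice 1, 2 and 3. These sums describe the libraries and were not tested.

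**Figure D3:**
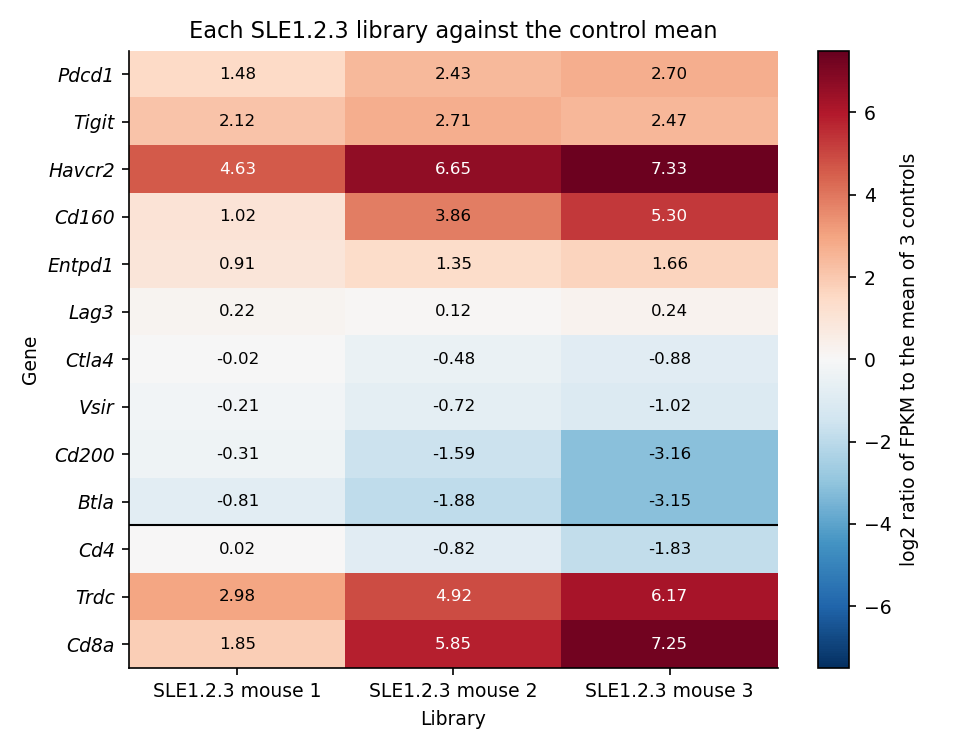
Log2 ratio of each SLE1.2.3 library to the mean of the 3 controls, computed on FPKM without a pseudocount, for the 10 inhibitory receptor genes and, under the line, the CD4, γδ and CD8 chain genes Cd4, Trdc and Cd8a. In mouse 1 Cd4 is at the control level (0.02) while Tigit (2.12), Pdcd1 (1.48) and Havcr2 (4.63) are above it, and Trdc (2.98) and Cd8a (1.85) are above it as well.

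The library of SLE1.2.3 mouse 1 was also described alone. In this library Cd4 was at 257 FPKM, against 246 to 264 FPKM in the controls, and the T cell receptor constant gene Trac at 447 FPKM against 418 to 453 FPKM. Markers of other lymphocytes were raised in it: relative to the control mean, the γδ chain genes Trdc and Trgc1 were 7.91-fold and 23.8-fold higher, the NK receptor gene Klrk1 16.7-fold and Cd8a 3.60-fold. Their part in the differences of the members in this library was not tested. Relative to the control mean, Havcr2 was 24.7-fold, Tigit 4.35-fold, Pdcd1 2.79-fold, Cd160 2.03-fold and Entpd1 1.88-fold higher there. Btla was 1.76-fold lower, whereas Cd200, Vsir and Ctla4 were 1.239-fold, 1.15-fold and 1.01-fold lower. When mouse 1 was the sole SLE1.2.3 library, Tigit, Pdcd1 and Btla passed in limma (adjusted p = 0.0045, 0.0067 and 0.016) among 8 members tested, where 5.87% of all genes passed. In that fit the spread came from the 3 controls, and a single library was taken to vary as they do. Havcr2 and Cd160 fell under the filter in it, and Entpd1 did not pass (adjusted p = 0.11). Without SLE1.2.3 mouse 1, 9 of the 10 members passed, all but Lag3, and so did 32.6% of all genes. Ctla4, Btla, Cd200 and Vsir were then lower, with log2 changes of -0.67, -2.42, -2.28 and -0.84. Without SLE1.2.3 mouse 3 the values of these 4 were smaller, at -0.24, -1.31, -0.93 and -0.45, and of them Btla passed (limma adjusted p = 0.044).

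Receptors that share a ligand or a pathway were compared as ratios within a library, which do not depend on its depth. The ratio of Tigit to Cd226 was 1.23, 1.71 and 1.38 in the controls and 7.08, 6.97 and 3.28 in SLE1.2.3 cells, a difference of 1.94 on the log2 scale with no overlap. The ratio of Entpd1 to Nt5e was 0.104, 0.160 and 0.123 in the controls and 0.206, 0.259 and 0.299 in SLE1.2.3 cells, a log2 difference of 0.99, also with no overlap. Each of these 2 gave p = 0.10 in an exact two-sided permutation test, which is the smallest value that 3 libraries against 3 can give, so neither could pass. The ratio of Ctla4 to Cd28 was 3.58, 3.59 and 2.72 in the controls and 3.17, 3.78 and 4.72 in SLE1.2.3 cells, and the groups overlapped (log2 difference 0.23, exact permutation p = 0.40). Adjusted over these 3 ratios by Benjamini-Hochberg, the exact permutation p-values were 0.15, 0.15 and 0.40.

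**Figure D4:**
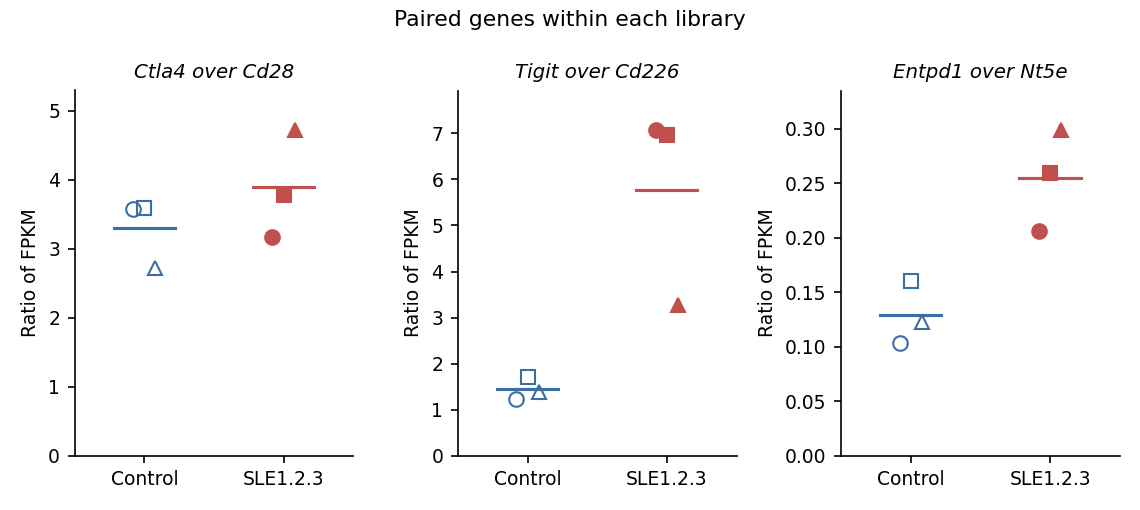
Ratio of FPKM within each library for 3 gene pairs on linear axes from 0, with circles, squares and triangles for mice 1, 2 and 3 and a bar for each group's mean. Tigit over Cd226 stays between 1.23 and 1.71 in the controls and reaches 3.28 to 7.08 in SLE1.2.3 cells, while Ctla4 over Cd28 overlaps between groups.

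The genes around the members were counted from lists of ligands, activating counterparts, signalling partners, regulators and further inhibitory receptors. Of all genes tested 15.2% passed. The lists were chosen with earlier results of these data known, so a share above 15.2% is not read as an enrichment. Of 16 listed ligands and binding partners 11 were tested, 4 rose and 2 fell (54.5% passed), with a median log2 change of 0.33 against 0.013 for all genes. The PD-1 ligand genes Cd274 and Pdcd1lg2 rose from 3.94 ± 0.206 to 11.0 ± 4.004 FPKM and from 1.2403 ± 0.221 to 2.03 ± 0.141 FPKM (SD, n = 3 each; limma adjusted p = 0.029 and 0.039). Cd80, which encodes the shared ligand of CTLA-4 and CD28, fell from 4.34 ± 0.895 to 1.37 ± 0.596 FPKM (limma adjusted p = 0.018). Pvr, which encodes the TIGIT ligand CD155, fell from 7.90 ± 0.522 to 4.404 ± 1.23 FPKM (adjusted p = 0.035). Lgals3, the galectin-3 gene, had a log2 change of 1.94 (adjusted p = 0.0020).

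None of 9 tested activating counterparts passed in limma, and none passed with limma voom. At an unadjusted limma p under 0.05, 3 of them were lower, where 3977 of all 11378 genes differed in either direction. Their median log2 change was -0.55. The further inhibitory receptors held 9 tested genes of 15, of which 3 rose and 6 did not pass (33.3% passed), with a median log2 change of 0.75. That median includes Cd300a, with a control mean of 0.0633 FPKM and a log2 change of 1.70 (limma adjusted p = 0.089). Cd300a was tested because of its SLE1.2.3 values, so a higher level was largely built into the filter. Klrc1, which encodes the NK receptor chain NKG2A, was at 1.41, 1.11 and 1.204 FPKM in the controls and 13.6, 30.4 and 35.4 FPKM in SLE1.2.3 cells (limma adjusted p = 0.0050). Cd96, another receptor for CD155, rose from 5.38 ± 1.30 to 26.4 ± 15.3 FPKM (adjusted p = 0.042), and Cd72 from 3.02 ± 0.378 to 7.29 ± 2.21 FPKM (adjusted p = 0.023). NKG2A and CD96 are carried by NK, CD8 and γδ T cells, whose listed markers were higher in the same libraries; their part in these changes was not tested.

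Of 18 tested intracellular partners 3 rose and the other 15 did not pass, a share of 16.7% that is close to the 15.2% of all genes, with a median log2 change of 0.10. Those that rose were Ptpn22, a phosphatase gene, Dok1, an adaptor gene, and Ubash3a, at log2 changes of 0.63, 0.40 and 0.31 (limma adjusted p = 0.018, 0.024 and 0.037). The genes of the phosphatases that bind receptor tails did not pass: Ptpn6, for SHP-1, was at 78.8 ± 5.16 and 64.3 ± 12.04 FPKM and Ptpn11, for SHP-2, at 19.1 ± 0.613 and 19.2 ± 1.34 FPKM (SD, n = 3 each; adjusted p = 0.17 and 0.97).

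Among 19 tested transcription factor and cytokine genes linked to inhibitory receptor expression 7 rose and 12 did not pass, with a median log2 change of 0.13. Prdm1, Tbx21 and Il10, 3 of the 7, had control means of 0.529, 0.254 and 0.868 FPKM and were tested because of their SLE1.2.3 values, so that a higher level was largely built into the filter. Prdm1, which encodes BLIMP-1, was at 0.406, 0.555 and 0.627 FPKM in the controls and 5.19, 13.5 and 19.0 FPKM in SLE1.2.3 cells (limma adjusted p = 0.010). Il10 and Batf rose, with log2 changes of 1.72 and 0.92 (adjusted p = 0.0064 and 0.0074), as did Bcl6 with 0.82 (adjusted p = 0.012). Tox, a factor of exhausted T cells, stayed under the filter, at 0.719 ± 0.0429 and 0.920 ± 0.0814 FPKM. Tox2, of the same list, rose from 5.37 ± 1.01 to 14.7 ± 3.76 FPKM (SD, n = 3 each; limma adjusted p = 0.017). Maf was at 47.9, 41.1 and 39.1 FPKM in the controls and 74.3, 32.2 and 23.4 FPKM in SLE1.2.3 mice 1, 2 and 3 (adjusted p = 0.82), so the libraries of 1 group lay on both sides of the controls. Tcf7, a factor of naive and memory T cells, was at 297 ± 37.1 and 241 ± 73.7 FPKM (adjusted p = 0.36).

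For the members that passed, tested protein-coding genes with the most similar profile were named, 2 each for Pdcd1, Havcr2 and Tigit and 1 for Entpd1, by the root mean square difference between log2(FPKM + 1) values over the 6 libraries after centring each gene on its mean. For Pdcd1 these were Irgm1 and Irf1, at 0.068 and 0.075, and Irf1 ran at 9.26, 11.8 and 12.6 FPKM in the controls and 29.1, 64.7 and 71.3 FPKM in SLE1.2.3 cells. For Havcr2 they were Tbx21 and Klrk1, at 0.10 and 0.13, with Tbx21 at 2.90, 9.41 and 17.2 FPKM in SLE1.2.3 cells. For Tigit they were Fbxo27 and Csf2, at 0.13 and 0.17. For Entpd1 the most similar was Cyp4v3, at 0.043. All of these libraries share the genotype split, which any gene that differs between the groups would follow.

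Tigit, Btla and Cd200 lie within 1.76 Mb of each other on chromosome 16, and Btla and Cd200 are separated by 124 kb. In SLE1.2.3 cells Tigit rose while Btla and Cd200 were lower in every library. Of the 14 genes tested in this stretch, from 43648867 to 45409053 (mm10), 2 rose, Tigit and Cd200r1, none fell, and in 8 the groups did not overlap. Leaving out the 3 members, 1 of 11 passed, where 15.2% of all genes did, and in 5 the groups did not overlap, where 41.5% of all genes were separate. The median log2 change of the 14 genes, members included, was 0.054. Atg3, the nearest tested gene before Btla, was at 17.2, 16.9 and 15.5 FPKM in the controls and 14.3, 13.8 and 14.1 FPKM in SLE1.2.3 cells (limma adjusted p = 0.061).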

How the data were processed

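RNA of 6 libraries, 3 per group, was measured, with polyadenylated RNA turned into libraries by a SMARTER kit, per the labels. The authors deposited FPKM values for 33300 features; multiplied by feature length in kb, every column adds up to 1000000. Tools in the submitters' processing notes, given with no role or order, are STAR 2.7.3a, DESeq2 1.24.0, featureCounts 2.0.0, FastQC 0.11.9 and cutadapt 2.10, with build mm10. The sources used here do not give the strand setting or the annotation, so a gene and its antisense neighbour may share reads; Pdzk1 and Cdh23 overlap Cd160 and Vsir on the other strand and were at most 0.382 and 0.578 FPKM, and the pseudogene Rpl18-ps1 within Ctla4 at most 4.13 FPKM. All 10 members had the coordinates of GENCODE M21.

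Whole reads were recovered from the smallest FPKM step, at the depth that gave values nearest to whole reads. At that depth 100.0% of the checked values under 30 reads were whole within 0.15 of a read. Only features short enough for FPKM rounding to stay under 0.15 of a read were checked. A value of 0 allows up to 3 reads, 0.0359 to 0.101 per 1000000 assigned, for counting error only. log2(FPKM + 1) was fitted for the 11378 genes whose mean reached 1 FPKM with limma 3.58.1 in R 4.3.3 (empirical Bayes with trend, genotype only), and p-values were adjusted by Benjamini-Hochberg at 0.05. Each library is named for its own mouse, so p-values rest on mouse-to-mouse spread. Scripts were tested on simulated data. Alternatives were pseudocount 0.1, no filter or a mean of 5 FPKM, 3 other scalings, array weights, robust variance, the mouse number as a block, limma voom with TMM factors on recovered reads, and libraries left out.

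Members and gene lists were chosen with earlier results of these data known. Named from each list were up to 4 called genes with the smallest adjusted p, and the counterparts and factors Cd28, Icos, Cd226, Nt5e, Cd274, Tnfrsf14, Cd200r1, Tox, Prdm1, Maf and Tcf7; genes with a like profile were the 2 nearest to each called member, of which 1 is not reported here. Pdcd1lg2, Adora2b, Cd300a, Tox2, Ptpn6, Ptpn11, Atg3, Trac and the markers named singly were chosen after their values were seen, as were the promoter motifs.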

Additional observations from a re-analysis of the deposited data

How the results depend on the processing

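Directions of all 10 members were the same under every alternative that tested them. The count of members passing in limma, 4 as reported, was 2 with no filter and 2 with a mean of at least 5 FPKM, which leaves out Havcr2, Cd160 and Entpd1. It was 9 with array weights, which gave SLE1.2.3 mouse 2 a weight of 68.6 and did not converge, 6 with a common FPKM sum, which moved the median log2 change of all genes from 0.013 to 0.11, 3 with limma voom, and between 1 and 9 when 1 mouse was left out. Tigit alone passed without control mouse 1, 2 or 3 or SLE1.2.3 mouse 2, and 9 passed without SLE1.2.3 mouse 1. Over all genes the count of 1733 became 798 with no filter, 1129 with a mean of at least 5 FPKM, 6952 with array weights, 659 when mouse 1 was the sole SLE1.2.3 library, and 206 to 3705 with 1 mouse left out (313, 258 and 272 without control mouse 1, 2 or 3, 206 without SLE1.2.3 mouse 2 and 3705 without SLE1.2.3 mouse 1). Fewer genes or libraries enter several of these fits; otherwise the cause was not tested.

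The mouse number as a replicate block gave 940 genes and the same 4 members. Same-numbered libraries had correlations of deviations of -0.004, 0.10 and 0.091, so the numbers were not taken as a pairing. The 3 ratios kept their direction in each alternative, with log2 differences of 0.082 to 0.37 for Ctla4 over Cd28, 1.75 to 2.30 for Tigit over Cd226 and 0.85 to 1.16 for Entpd1 over Nt5e, or 0.48 with 1 FPKM added to both genes.

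Depth limited Havcr2 and Cd160 in the controls, where they had 9 to 10 and 19 to 26 reads.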
